A study of Mus musculus with 288 samples.

Results

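Collagens are the triple-helical proteins that give tissues their scaffold, and the genes described here are the 42 collagen genes (symbols of the form Col, a type number, a and a chain number) that had a mean of at least 0.5 TPM in 1 or more of the 12 tables of tissue and treatment, out of 44 collagen symbols and 35904 genes in all. TPM, a measure of transcript share per library, corrects for transcript length, so levels of different genes can be set side by side. The rule used levels only, and took no account of treatment or time. Just outside it were Col6a4 and Col6a5, whose highest table means were 0.348 and 0.299 TPM, and just inside were Col9a1, Col10a1 and Col24a1 at 0.602, 0.649 and 0.712 TPM.

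The mice were wild-type male C57BL/6J animals, 8 weeks old, housed under normoxia (room air) or intermittent hypoxia (IH), in which oxygen cycled between 21% and 8% during the resting phase for 7 days, before 2 days in constant darkness in room air. Lung, liver, kidney, muscle, heart and cerebellum were collected on the second of those days at 8 times, every 3 hours from 1:30 h to 22:30 h as the labels give them. With 3 replicates at each time, a tissue has 24 libraries in either treatment, and there are 288 in all. The study describes 3 mice per time and treatment, and the labels do not name the mouse behind a library. Neither group carries a transgene or a deletion. As these are whole-tissue samples, fewer collagen-producing cells and less collagen RNA per cell cannot be told apart.

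A collagen molecule is built of 3 chains, which are hydroxylated and cross-linked with the help of dedicated enzymes. Fibrillar collagens such as types I, III and V form the tensile fibres of connective tissue, and type IV forms the sheet-like network of basement membranes under epithelium and endothelium. Type VI makes beaded filaments around cells, the fibril-associated collagens (FACIT) sit on the surface of fibres, and multiplexins (types XV and XVIII) lie in and around basement membranes. The enzymes that hydroxylate collagen use molecular oxygen, and fibroblasts are the main source of fibrillar chains in most organs.

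Genes of type IV lie as pairs that start from a common region and run in opposite directions. In the mouse annotation of build GRCm38 (GENCODE release M21), Col4a1 occupies chr8:11198423-11312826 on the minus strand and Col4a2 chr8:11312805-11449287 on the plus strand, so that the starts lie 21 bases apart and the annotated ends overlap. Col4a3 (chr1:82586921-82722059, plus) and Col4a4 (chr1:82448423-82586849, minus) start 72 bases apart, and Col4a5 and Col4a6 on chromosome X start 1309 bases apart. Col5a3 lies at chr9:20770050-20815067 (minus) and Col27a1 at chr4:63214004-63334991 (plus). The start regions of Col4a1, Col4a2 and Col4a4 are shown for these shared starts, and those of Col5a3 and Col27a1 because the results on rhythm and treatment turn on them. Each is the RefSeq window of 300 bases (250 before the start and 50 after it, GRCm38.p6), in the direction of the gene. The RefSeq start of Col27a1 lies inside the span that GENCODE gives it. Capitals mark 4 motifs searched on both strands, the E-box CACGTG known from clock factors, the shorter ACGTG known as the core of hypoxia response elements, the CCAAT box and the GC box CCGCCC. Where ACGTG lies inside CACGTG, both would be counted.

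Col4a1, chr8:11312777-11313076, minus strand: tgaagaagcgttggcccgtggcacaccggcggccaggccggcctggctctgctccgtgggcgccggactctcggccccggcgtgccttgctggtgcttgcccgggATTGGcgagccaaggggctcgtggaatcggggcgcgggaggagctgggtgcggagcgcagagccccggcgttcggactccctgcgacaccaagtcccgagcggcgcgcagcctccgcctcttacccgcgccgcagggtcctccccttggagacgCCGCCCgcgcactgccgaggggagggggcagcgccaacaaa

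Col4a2, chr8:11312555-11312854, plus strand: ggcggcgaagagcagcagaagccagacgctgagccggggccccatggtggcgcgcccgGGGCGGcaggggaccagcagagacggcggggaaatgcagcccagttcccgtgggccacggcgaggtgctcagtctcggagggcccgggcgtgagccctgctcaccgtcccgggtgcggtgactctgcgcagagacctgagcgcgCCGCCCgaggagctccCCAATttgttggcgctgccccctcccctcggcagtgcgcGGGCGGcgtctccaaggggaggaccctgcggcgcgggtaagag

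Col4a4, chr1:82586800-82587099, minus strand: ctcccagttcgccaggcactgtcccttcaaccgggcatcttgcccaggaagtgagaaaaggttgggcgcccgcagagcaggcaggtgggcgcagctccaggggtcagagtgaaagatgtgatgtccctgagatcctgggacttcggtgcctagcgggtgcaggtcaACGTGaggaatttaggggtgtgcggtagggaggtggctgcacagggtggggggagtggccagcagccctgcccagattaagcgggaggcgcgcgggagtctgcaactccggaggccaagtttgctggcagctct

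Col5a3, chr9:20815018-20815317, minus strand: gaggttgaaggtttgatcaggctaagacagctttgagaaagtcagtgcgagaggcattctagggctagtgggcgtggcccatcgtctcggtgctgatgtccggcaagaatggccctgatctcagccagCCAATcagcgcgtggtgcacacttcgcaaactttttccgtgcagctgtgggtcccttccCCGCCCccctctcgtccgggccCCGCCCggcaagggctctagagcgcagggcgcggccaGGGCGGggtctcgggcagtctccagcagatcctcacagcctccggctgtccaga

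Col27a1, chr4:63215162-63215461, plus strand: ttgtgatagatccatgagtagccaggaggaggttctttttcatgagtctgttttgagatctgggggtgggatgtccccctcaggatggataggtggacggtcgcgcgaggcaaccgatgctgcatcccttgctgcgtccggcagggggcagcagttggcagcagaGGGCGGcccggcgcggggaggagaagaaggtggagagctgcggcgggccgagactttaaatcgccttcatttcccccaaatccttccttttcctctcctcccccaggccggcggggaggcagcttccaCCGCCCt

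The Col4a1 and Col4a2 windows shared 78 bases, read from opposite strands, and the annotated start of Col4a3 falls on base 179 of the Col4a4 window. RefSeq windows were at hand for 33 of the 42 genes, 36 windows in all. CCGCCC was in 58.3% of these windows and in 35.9% of the 32544 windows of all genes, CCAAT in 33.3% and 37.4%, and ACGTG in 13.9% and 19.7%. CACGTG, which 7.17% of all windows hold, was in 0 of the 36. These are matches of letters and not sites shown to be bound.

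In normoxia the collagen genes together made up most in the muscle, with 1379 ± 449 TPM (SD, n = 24), followed by the lung with 913 ± 176, the heart with 349.7 ± 108, the liver with 225.2 ± 44.6, the kidney with 203.5 ± 59.6 and the cerebellum with 139.4 ± 42. Libraries of the muscle reached from 733 to 2406 TPM and those of the lung from 474 to 1237 TPM, and each tissue overlapped with its neighbour in this order. The largest share was fibrillar in the muscle (66.7%) and the heart (46.5%), and type IV in the lung (42.5%) and the kidney (46.4%). In the liver 73.6% came from the multiplexins.

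Muscle was the tissue of highest mean for 20 of the 42 genes (47.6%), where it was the highest for 8.15% of all genes that average 0.5 TPM or more in a tissue. The lung was highest for 13 genes (31.0%, against 34.1% of all genes) and the cerebellum for 5 (11.9%, against 36.1%). Liver had 2, and kidney and heart had 1 each. The levels are given as a description, without a test.

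Col3a1, the chain of type III collagen, was the highest collagen of the muscle at 420 ± 174 TPM, with 213 TPM in the lowest library, 364 at the median and 847 in the highest. Col1a2 and Col1a1, the chains of type I, followed with 231 ± 67.3 and 185 ± 62.6 TPM, then Col4a1 with 99.3 ± 36.7 and Col6a2 with 78.7 ± 26.7. The libraries of the muscle did not overlap with those of the lung, the next tissue, for Col1a1, Col1a2 or Col3a1. The heart had the same leading fibrillar chain, Col3a1 at 79.0 ± 25.9 TPM, ahead of Col4a1 (47.5 ± 18.6), Col1a2 (39.0 ± 11.4), Col4a2 (32.4 ± 14.3) and Col1a1 (24.0 ± 8.97).

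In the lung the leading pair were the main basement membrane chains, Col4a1 with 169 ± 41.5 TPM (lowest 51.9, median 177, highest 244) and Col4a2 with 143 ± 40.6 TPM. Col3a1 at 115 ± 27.6, Col1a2 at 80.8 ± 13.3 and Col6a1 at 66.3 ± 16.2 TPM came next. Col13a1 and Col23a1, which code for collagens that span the cell membrane, were 7.93 and 5.52 times higher in the lung than in the next tissue, without overlap between libraries. Col4a6 was 6.47 times higher there than in the heart, at 4.25 TPM.

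In the kidney, Col4a3 and Col4a4, whose chains make the network of the glomerular filter together with Col4a5, stood at 23.7 ± 7.59 and 20.4 ± 5.48 TPM, close to Col18a1 at 27.8 ± 7.96, Col4a1 at 26.1 ± 9.49 and Col4a2 at 16.7 ± 6.24 TPM. The kidney and the lung overlapped in Col4a3 and in Col4a4. In the liver a single gene led, Col18a1, whose protein carries the endostatin fragment, at 163 ± 39.0 TPM (lowest 91.1, median 154, highest 239), and the next, Col14a1, reached 9.76 ± 1.60 TPM. Col27a1 stood at 9.14 ± 6.19, Col3a1 at 9.09 ± 2.15 and Col4a1 at 6.35 ± 2.58 TPM in the liver. Col18a1 was 5.88 times higher there than in the kidney, without overlap.

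The cerebellum was led by Col9a3 at 22.1 ± 8.10 TPM, a chain of the FACIT collagen known from cartilage, which was 43.7 times higher than in the next tissue, and by Col1a2 at 13.2 ± 4.77, Col9a2 at 8.92 ± 3.44, Col4a3 at 8.83 ± 9.34 and Col3a1 at 7.57 ± 4.51 TPM. Col4a3 there ran from 0.681 to 41.2 TPM between libraries. Without the 8 normoxia libraries that held over 1000 TPM of heart or muscle markers, the cerebellum total was 119 ± 21.3 TPM (SD, n = 16), with Col3a1 at 4.96 ± 1.67, Col4a3 at 4.48 ± 2.81 and Col9a3 at 23.5 ± 9.19 TPM. Col2a1, the cartilage fibril chain, was as uneven in the muscle, with a median of 0.271 TPM and 38.6 TPM in the highest normoxia library (replicate 2 at 19:30 h). That library was also the highest of its group for Col9a1, Col9a2, Col9a3, Col10a1, Col11a1 and Col11a2 and, among 6 cartilage markers, for Acan, Hapln1, Cnmd and Comp. The part of cartilage in these values was not tested. Over genes of 1 TPM or more, the coefficient of variation between normoxia libraries had a median for collagens of 21.3% in lung (15.8% for all genes), 26.7% in liver (23.1%), 31.7% in kidney (18.5%), 31.8% in muscle (18.3%), 32.8% in heart (30.3%) and 46.7% in cerebellum (32.3%). It includes the variation over time of day.

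**Figure D1:**
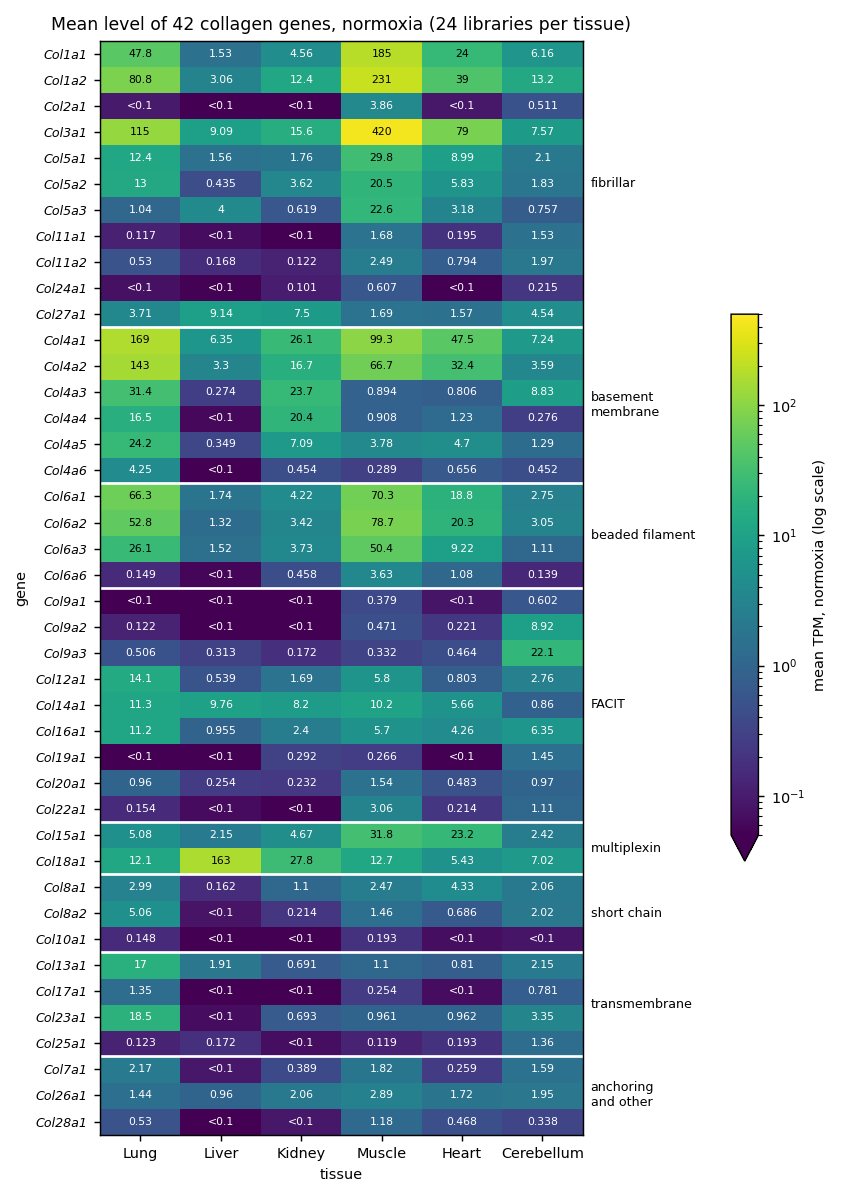
Mean TPM of the 42 collagen genes (rows, by class) in normoxia in the 6 tissues (columns), 24 libraries each, on a logarithmic colour scale, with each mean printed. Col3a1 reaches 420 TPM in the muscle, Col4a1 169 TPM in the lung and Col18a1 163 TPM in the liver, while Col9a3 is highest in the cerebellum.

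Some libraries stood apart before any comparison. The library labelled liver, IH, replicate 2 at 13:30 h held 4751 TPM of 4 heart markers, where the other 23 liver libraries after IH held 14.5 to 31.3, and 1172 TPM of 4 liver markers against 26211 to 58896 in those. It was the only one of 288 closer to another tissue than to its own, and results of the liver are given with and without it. Each tissue expressed its own defining markers, but some libraries also held those of other organs. Heart markers summed to a median of 566 TPM (37.0 to 2320) in the cerebellum in normoxia and 324 (23.1 to 5214) after IH, and muscle markers there reached 4287 TPM in 1 library. Lung markers reached 1997 TPM in the heart in normoxia, with a median of 0.716, and 301 TPM in the muscle, and liver markers reached 533 TPM in the lung. Results were also computed without the libraries above 1000 TPM in the cerebellum (8 in normoxia and 3 after IH) and those above 100 TPM, or 50 TPM of cerebellum markers, in heart (4 and 3), muscle (1 and 2) and lung (0 and 1), limits set after seeing the data. These limits did not cover every list of markers in every tissue. Muscle markers reached 379 TPM in a lung library in normoxia that was kept, and no limit was set for the liver. The mean number of genes detected rose from 22694 to 25455 in the lung and fell from 25124 to 21447 in the heart after IH. In the heart its range was 22988 to 28331 in normoxia and 20316 to 22793 after IH, without overlap. In the lung it was 21746 to 25400 and 23622 to 28284. A term for genes detected therefore stands close to treatment in lung and heart. It can take up part of the change with treatment and cannot separate detection from treatment. For comparisons between treatments, TPM was scaled per library to a common median ratio, which moved the median log2 change of all genes by 0.28 in the lung, 0.11 in the heart and 0.11 in the liver relative to TPM as deposited. After IH, the libraries of replicate 3 also lay apart from replicates 1 and 2 in several collagen genes of the lung and liver, as shown beside those genes. The labels do not say what a replicate number stands for beyond its order.

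Mean 24-hour expression was compared with limma on log2(scaled TPM + 0.5) for genes that average 1 TPM or more in the tissue, with Benjamini-Hochberg adjustment over all genes tested in that tissue. A gene is called higher or lower at an adjusted p of 0.05 and changed if it moved by at least 1.5-fold as well. Of the 42 collagen genes, Col9a1, Col10a1 and Col24a1 did not reach this level in any tissue. All changes are on the log2(scaled TPM + 0.5) scale, which understates those of low genes. The p-values measure the spread between libraries.

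In the lung, of 31 collagen genes tested, 8 were higher after IH, where 28.9% of all genes were, and 15 were lower, where 41.5% of all genes were. Lower were 3 of 8 fibrillar, 3 of 6 basement membrane, 3 of 5 FACIT and 2 of 3 beaded filament (type VI) genes, and higher were 2, 1, 2 and 0 of these. Changed by 1.5-fold were 9, of which 6 were higher, where 9.09% of all genes were, and 3 lower, where 4.39% were. The median change was -0.20 for the collagens and -0.08 for all genes. On TPM as deposited the counts were 12 higher and 3 lower and the median was 0.10, but against the all-gene median of 0.21 the collagens lay 0.11 below it there and 0.13 below it with scaling. With a term for the number of genes detected, 14 were higher and 4 lower, where 4234 and 3869 of all 15426 genes were. The collagen median was then 0.22 and the all-gene median 0.02, so the collagens lay 0.21 above it. In replicate numbers 1 and 2 alone the collagens lay 0.39 and 0.22 below the all-gene median, and in replicate 3 alone 0.26 above it.

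Col26a1, which codes for a little-studied collagen-like matrix protein, ranged from 0.597 to 5.49 scaled TPM in normoxia with a median of 1.30, and from 2.59 to 24.6 with a median of 5.49 after IH. The ranges overlapped, but the normoxia median lay below the lowest IH library, and IH was higher at 8 of 8 time points. The log2 change was 1.82 ± 0.21 (SE, n = 24 against 24, adjusted p = 2.6e-10), or 3.54-fold, and 0.22 with the term for genes detected (adjusted p = 0.242).

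Col27a1, a fibrillar collagen gene known from developing cartilage, was higher in each replicate number. It ran from 2.92 to 6.54 scaled TPM in normoxia (median 3.94) and from 5.57 to 15.5 after IH (median 8.15). The ranges overlapped between 5.57 and 6.54 and the change was 1.05 ± 0.10 (SE, n = 24 against 24, adjusted p = 5.18e-12). Replicate numbers 1, 2 and 3 alone gave 1.38, 1.15 and 0.57. With the term for genes detected it was still higher, by 0.34 (limma adjusted p = 0.00411), but no longer reached 1.5-fold.

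Col7a1, the anchoring fibril that ties epithelial basement membranes to the stroma, ran from 0.740 to 4.70 with a median of 2.06 in normoxia, and from 2.04 to 11.2 with a median of 4.09 after IH. Its change was 0.82 ± 0.15 (SE, n = 24 against 24, adjusted p = 2.96e-06). Col20a1, a FACIT chain, went from a median of 0.931 scaled TPM (0.622 to 2.12) to 2.12 (1.22 to 5.12), a change of 0.82 ± 0.11 (adjusted p = 3.62e-09). With the term for genes detected, Col7a1 stood at 0.01 and Col20a1 at 0.15, neither past the threshold.

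Col9a3 went from a median of 0.463 (0.208 to 1.11) to 1.32 (0.434 to 3.33) scaled TPM, a change of 0.79 ± 0.13 (SE, n = 24 against 24, adjusted p = 3.7e-07). Col11a2, a chain of the cartilage type XI collagen, went from 0.550 (0.201 to 1.19) to 1.36 (0.670 to 2.14), a change of 0.71 ± 0.09 (adjusted p = 4.12e-09). Col9a3, Col11a2 and Col20a1 averaged 0.506, 0.530 and 0.960 TPM as deposited in normoxia, below the mean of 1 TPM over all lung libraries that the test asked for, and entered the test through their IH libraries, so that the filter partly set the difference of these 3. All 6 of these genes were higher at 8 of 8 time points. Col17a1, a hemidesmosome collagen, and Col4a4 were also higher, by 0.45 ± 0.09 (adjusted p = 8.6e-06) and 0.20 ± 0.07 (adjusted p = 0.00716), without reaching 1.5-fold.

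Col4a1 fell from a median of 192 scaled TPM (70.7 to 244) to 128 (47.3 to 193), a change of -0.69 ± 0.15 (SE, n = 24 against 24, adjusted p = 9.62e-05). After IH, replicates 1 and 2 had medians of 72.7 and 91.6 and replicate 3 had 176, with a lowest value of 161, while in normoxia the medians were 211, 192 and 170. Replicate numbers 1, 2 and 3 alone gave changes of -1.32, -0.85 and 0.08. The fall therefore rested on replicates 1 and 2, and the value with the term for genes detected had the opposite sign, 0.50 (adjusted p = 5.27e-05).

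Col4a2, named here after its values were seen since it shares its start region with Col4a1, fell by 0.60 on the log2 scale (SE 0.17, n = 24 against 24, adjusted p = 0.00149), from a median of 167 (47.2 to 202) to 107 (39.97 to 184). Replicate numbers alone gave -1.35, -0.79 and 0.29, the value with the term for genes detected was 0.69, and on TPM as deposited it was -0.30 (adjusted p = 0.123). The head-to-head pair thus showed the same split between replicate numbers. Of the other pair, Col4a3 stood at -0.16 (adjusted p = 0.366), with -1.03, -0.20 and 0.70 in the replicate numbers, and Col4a4 was higher.

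Col12a1, a FACIT chain found in tendon and other strained tissue, differed from the type IV pair in that replicate numbers 1, 2 and 3 alone gave -0.85, -0.84 and -0.44. It fell from a median of 15.1 (11.6 to 18.5) to 8.97 (6.08 to 16.0) scaled TPM, at 8 of 8 time points, a change of -0.70 ± 0.08 (SE, n = 24 against 24, adjusted p = 2.32e-10). It was still lower on TPM as deposited (-0.41, adjusted p = 1.54e-05) and with the term for genes detected (-0.24, adjusted p = 0.0306). The further 12 genes that were lower lay between -0.56 for Col15a1 and -0.20 for Col5a2 and included Col1a2 (-0.38), Col3a1 (-0.32) and Col6a3 (-0.30), of which Col13a1 and Col5a2 turned to positive values on TPM as deposited.

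Of the 23 collagen genes past the threshold in the lung, 21 could be computed in each replicate number, and 11 of these had the same sign in all 3. In 9, all lower ones, replicate 3 had the opposite sign, among them Col1a2, Col4a1, Col4a2, Col6a2 and Col14a1. With the term for genes detected 11 of the 23 turned sign, and these were all genes that had been lower. Leaving out replicate 3 gave 14 changed genes (6 higher and 8 lower), leaving out replicate 2 gave 6 (4 higher and 2 lower) and leaving out replicate 1 gave 5 (4 higher and 1 lower). Markers of other cells moved along on scaled TPM, where 41.5% of all genes were lower and 28.9% higher. Lower were 7 of 8 endothelial, 4 of 4 mesothelial, 5 of 8 smooth muscle and pericyte and 4 of 4 lung epithelial markers, with medians of -0.60, -0.71, -0.41 and -0.76. Of 8 fibroblast markers 3 were lower and 1 was higher. Summed TPM as deposited ranged from 1474 to 2717 for the endothelial list in normoxia and from 1690 to 2375 after IH, and for the fibroblast list from 347 to 478 and from 302 to 602. The lung epithelial list ran from 134284 to 263122 and from 33974 to 202767. Median sums in normoxia and after IH were 2244 and 2083 TPM for the endothelial list and 128 and 103 for the mesothelial list. They were 363 and 365 for smooth muscle and pericyte, 404 and 439 for fibroblasts and 168411 and 145355 for lung epithelium. The part of cell composition in the collagen values was not tested.

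In the heart, 10 of 22 collagen genes tested were higher after IH, where 28% of all genes were, and 2 were lower, where 17.3% of all genes were. Changed by 1.5-fold were Col18a1, which was higher, where 1.1% of all genes were, and Col26a1, which was lower, where 1.85% were. The median was 0.21 for the collagens and 0.04 for all genes, and 0.33 and 0.15 on TPM as deposited, where 12 were higher and 2 lower. With the term for genes detected, 0 were past the threshold by limma, where 113 of all 12779 genes were higher and 144 lower. Of the 22 collagens, 5 had an unadjusted p under 0.05 there, 20 were negative and the median was -0.27. Of the 12 collagens past the threshold, 10 were on one side at 8 of 8 time points, and all 11 that could be computed in each replicate number had the same sign in all 3. Without replicate 1, 5 were higher and 1 lower and 0 were changed by 1.5-fold, with 10 at an unadjusted p under 0.05 by limma. Without the 7 heart libraries that held markers of lung or cerebellum, 8 were higher and 3 lower, and 2 were changed.

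Col18a1 rose in the heart from a median of 5.37 (3.67 to 9.76) to 8.44 (6.00 to 12.7) scaled TPM, by 0.62 ± 0.08 (SE, n = 24 against 24, adjusted p = 1.34e-07), and stood at 0.23 with the term for genes detected (adjusted p = 0.328). Col26a1 went the other way, from a median of 1.64 (0.582 to 4.23) to 0.477 (0.173 to 0.837), a change of -1.15 ± 0.12 (adjusted p = 1.39e-10), with overlap between 0.582 and 0.837 and IH lower at 8 of 8 time points. With its IH libraries below 1 TPM, it entered the test through normoxia. Col27a1 was lower as well, with a change of -0.45 ± 0.08 (SE, n = 24 against 24, adjusted p = 1.97e-05).

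Type I chains of the heart were higher at 8 of 8 time points, with Col1a1 going from a median of 23.4 to 32.5 scaled TPM (0.46 ± 0.14, SE, n = 24 against 24, adjusted p = 0.007) and Col1a2 from 40.8 to 55.9 (0.47 ± 0.11, adjusted p = 0.000447). So were Col14a1 (0.46 ± 0.09), Col5a2 (0.39 ± 0.10), Col6a2 (0.38 ± 0.11), Col6a1 (0.36 ± 0.10), Col4a2 (0.35 ± 0.15) and Col23a1 (0.27 ± 0.06), and Col8a1 (0.24 ± 0.10) was at 6 of 8, with adjusted p between 5.67e-05 and 0.0479. Col4a1, the partner of Col4a2, stood at 0.33 (adjusted p = 0.0546) and Col3a1, the highest collagen of the heart, at 0.17 (adjusted p = 0.356). With the term for genes detected the sign turned in 8 of the 12, Col1a1, Col1a2 and Col4a2 among them. Here 6 of 8 fibroblast, 6 of 8 smooth muscle and pericyte, 6 of 8 endothelial and 4 of 4 mesothelial markers were higher, with medians of 0.33, 0.43, 0.40 and 0.58, and 1 endothelial marker was lower. Of all genes in the heart 28% were higher and 17.3% lower. The summed fibroblast list went from 401 to 829 TPM in normoxia and from 597 to 1068 after IH, and its part in the collagen values was not tested.

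In the liver, 3 of 15 collagen genes were lower, where 13.3% of all genes were, and 0 were higher, where 10.9% of all genes were, with 6 of 15 at an unadjusted p under 0.05. Col18a1 alone was changed, where 3.65% of all genes were. It fell from a median of 152 (94.9 to 196) to 85.6 (13.0 to 223) scaled TPM, a change of -0.69 ± 0.19 (SE, n = 24 against 24, adjusted p = 0.0059). After IH, replicates 1 and 2 lay between 13.0 and 109 and replicate 3 between 159 and 223, without overlap, and the replicate numbers alone gave -1.003, -1.25 and 0.16. Col14a1 (-0.58 ± 0.10, adjusted p = 6.77e-05) and Col5a3 (-0.56 ± 0.20, adjusted p = 0.0316) were lower too.

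Without the library that held heart transcripts, 13 of the 15 were lower, where 15.3% of all genes were, and 0 were higher, where 13.7% were. That library was the highest of its group for 10 of the 15 genes, with 62.2 TPM of Col3a1 against 3.22 to 14.6 in the other 23 and 23.8 TPM of Col1a1 against 0.423 to 3.18. Without it, Col4a1 fell by 0.61 on the log2 scale, Col3a1 by 0.55, Col6a3 by 0.53, Col1a1 by 0.45 and Col1a2 by 0.43, with adjusted p between 0.000269 and 0.00044. Col18a1 fell by 0.57 and no longer reached 1.5-fold. Only Col13a1 (0.05) and Col27a1 (-0.48, adjusted p = 0.157) then missed the threshold. In the full set, 0 genes were changed by limma without replicate 1 or without replicate 2 (4 and 11 at an unadjusted p under 0.05) and 4 without replicate 3. Replicate numbers 1, 2 and 3 alone gave collagen medians of -0.63, -0.19 and -0.03, and all-gene medians of -0.02, -0.03 and 0.01. Number 2 there includes the library that held heart transcripts. In replicate 3 alone 0 of 15 collagens passed by limma, with 1 at an unadjusted p under 0.05, where 1 of all 11468 genes passed. Markers of other organs also moved in the liver: 3 of 3 kidney markers tested were higher (median 2.13, summed TPM from 0.529 to 111 in normoxia and from 36.9 to 402 after IH), and 4 of 4 heart markers (median 1.38, from 3.20 to 34.5 and from 14.5 to 4751). Without the library that held heart transcripts the median was 2.01 for the kidney markers (36.9 to 119 TPM after IH) and 1.02 for the heart markers (14.5 to 31.3). Of the other cell types, 3 of 8 endothelial markers (median 0.30), 2 of 4 smooth muscle and pericyte markers (0.37) and 1 of 6 fibroblast markers were higher, and 1 of 4 liver markers was lower (median of the 4 -0.37, and -0.19 without that library). In the full set 10.9% of all liver genes were higher and 13.3% lower. The part of these markers in the collagen values was not tested.

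The kidney had 4 of 21 collagen genes higher, where 8.25% of all genes were, and 0 lower, where 11.5% were, and 0 changed by 1.5-fold, where 0.783% were. By limma, 6 of the 21 had an unadjusted p under 0.05, and without replicate 1 or replicate 3 the changed count was 1. Col6a3, the large chain of type VI, went from a median of 3.47 to 5.34 scaled TPM, a rise of 0.55 ± 0.10 (SE, n = 24 against 24, adjusted p = 0.00014) at 7 of 8 time points and in each replicate number. Col16a1, Col5a1 and Col12a1 were higher by 0.27, 0.22 and 0.13, with adjusted p between 0.0286 and 0.046. On TPM as deposited only Col6a3 passed. Hspg2, the basement membrane proteoglycan perlecan, was the only matrix partner changed in the kidney, by 0.78 ± 0.09 (adjusted p = 1.16e-08).

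In the muscle, the tissue with the most collagen RNA, all 30 genes tested had a negative change, between -0.38 for Col15a1 and -0.02, but 2 passed the threshold, Col22a1 and Col4a5 (both -0.34 ± 0.11, SE, n = 24 against 24, adjusted p = 0.0378 and 0.0387). Of all genes 4.89% were lower and 5.48% higher, and 0.374% were changed by 1.5-fold, none of them a collagen. The median was -0.18 for the collagens and -0.004 for all genes. On TPM as deposited it was -0.09 and 0.09, and there 27 of the 30 were negative and 0 passed by limma, with 2 at an unadjusted p under 0.05. The share of all genes with a negative change was not counted. In the muscle the same replicate number deviated together in both treatments, and with the replicate number as a block 8 were lower, where 6.86% of all genes were: Col1a2, Col4a2, Col4a5, Col6a1, Col6a2, Col14a1, Col15a1 and Col22a1. Without a block, 4 were lower without replicate 3 and 0 without replicate 1 or 2 by limma (3 and 8 at an unadjusted p under 0.05). Of 8 fibroblast markers 2 were lower.

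In the cerebellum 2 of 30 collagens were higher, where 9.76% of all genes were, and 2 lower, where 5.24% were, and 0 were changed, where 2.64% were, with 7 of 30 at an unadjusted p under 0.05 by limma. Col9a2 rose from a median of 8.27 to 12.8 scaled TPM (0.58 ± 0.12, SE, n = 24 against 24, adjusted p = 0.000457), with 0.81 and 0.95 in replicate numbers 1 and 2 and -0.02 in replicate 3. Col11a2 rose by 0.44 ± 0.13, with 0.64 and 0.79 in replicate numbers 1 and 2 and -0.09 in replicate 3, and Col5a1 and Col12a1 fell by 0.47 and 0.37 on the log2 scale, with -0.24 and -0.02 in replicate 3. Leaving out replicate 3 gave 10 changed genes, 3 higher and 7 lower, while 0 passed without replicate 1 or 2 by limma (4 and 2 at an unadjusted p under 0.05). Without IH replicate 3 at 1:30 h, the cerebellum library least like the others, 3 were changed, and without all 11 with over 1000 TPM of heart or muscle markers, 2 of 26 were higher, 4 lower and 1 of these changed.

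**Figure D2:**
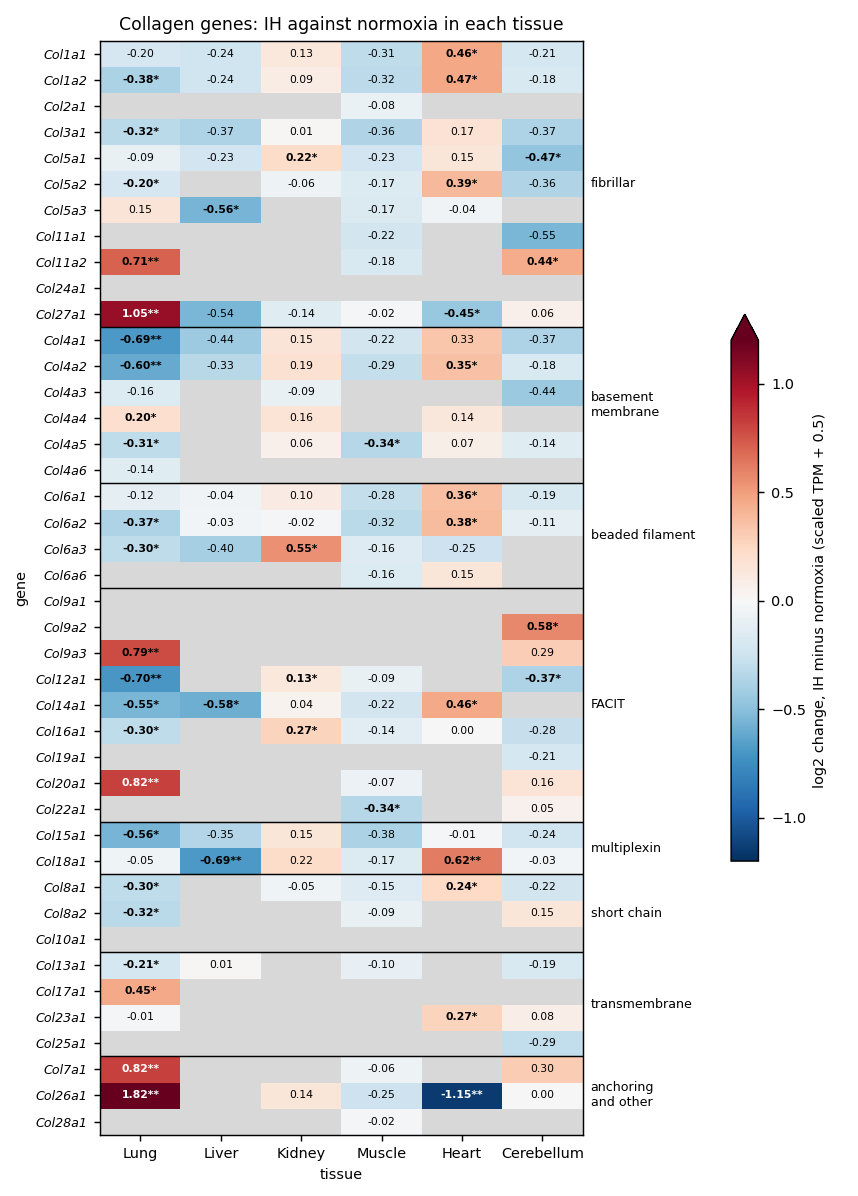
The log2 change from normoxia to IH (24 against 24 libraries, scaled TPM + 0.5) of each collagen gene (rows) in each tissue (columns), with an asterisk for an adjusted p of at most 0.05, a pair of asterisks for a change of at least 1.5-fold as well, and grey where the mean was under 1 TPM. Col26a1 is at 1.82 in the lung and -1.15 in the heart, and in the muscle all 30 values are negative (median -0.18, and -0.004 for all genes). The signs of Col13a1 and Col5a2 in the lung turn on TPM as deposited, and 11 in the lung and 8 in the heart turn with a term for the number of genes detected.

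**Figure D3:**
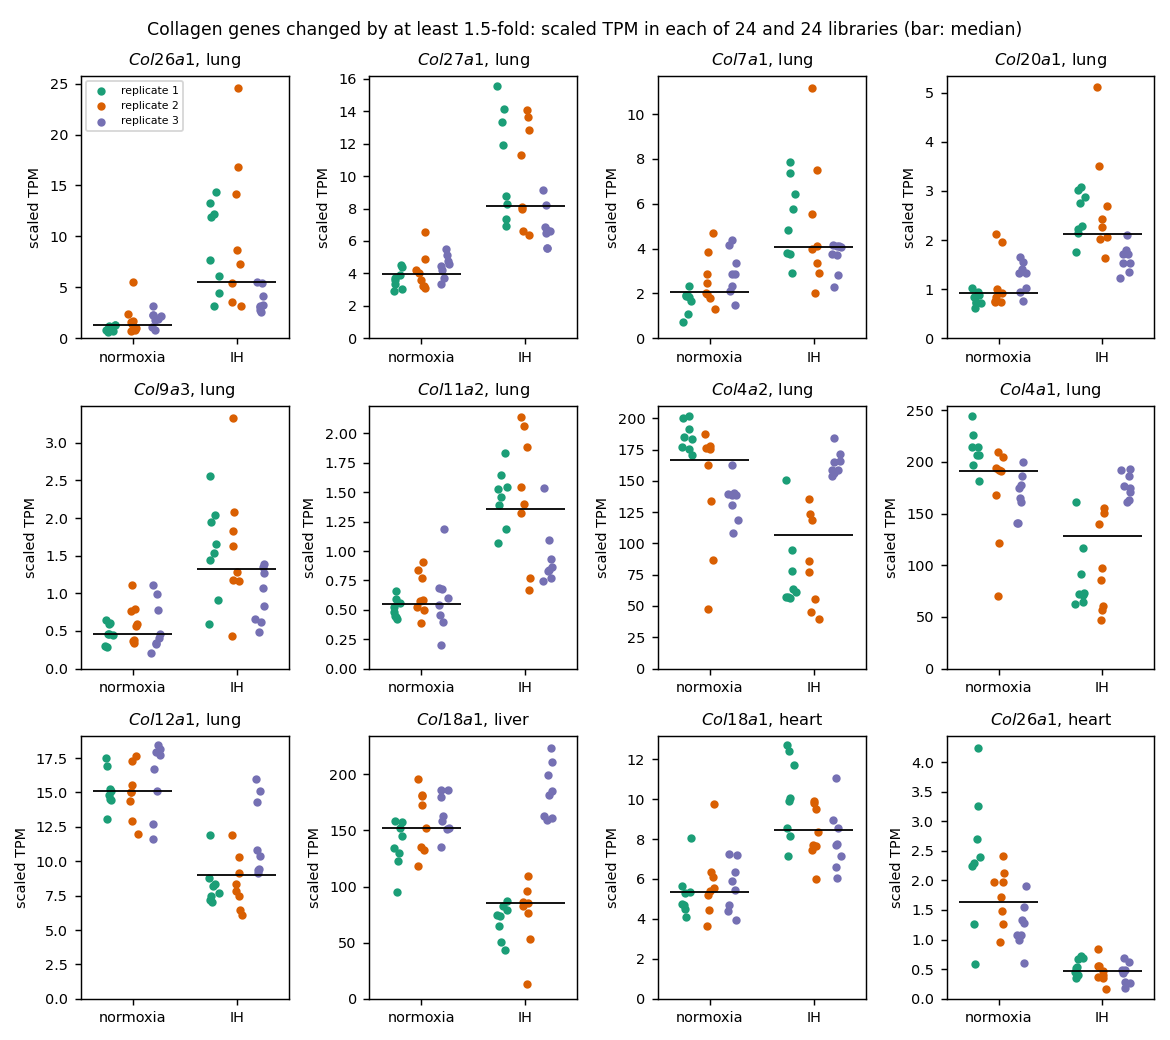
Scaled TPM of the 12 collagen genes and tissues changed by at least 1.5-fold, each point 1 library (24 in normoxia and 24 after IH), coloured by replicate number, with the median as a bar. For Col4a1 and Col4a2 in the lung and Col18a1 in the liver the IH libraries of replicate 3 lie at the normoxia level, while Col27a1 and Col12a1 in the lung move in every replicate number. Col4a1 and Col4a2 turn sign with a term for the number of genes detected.

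**Figure D4:**
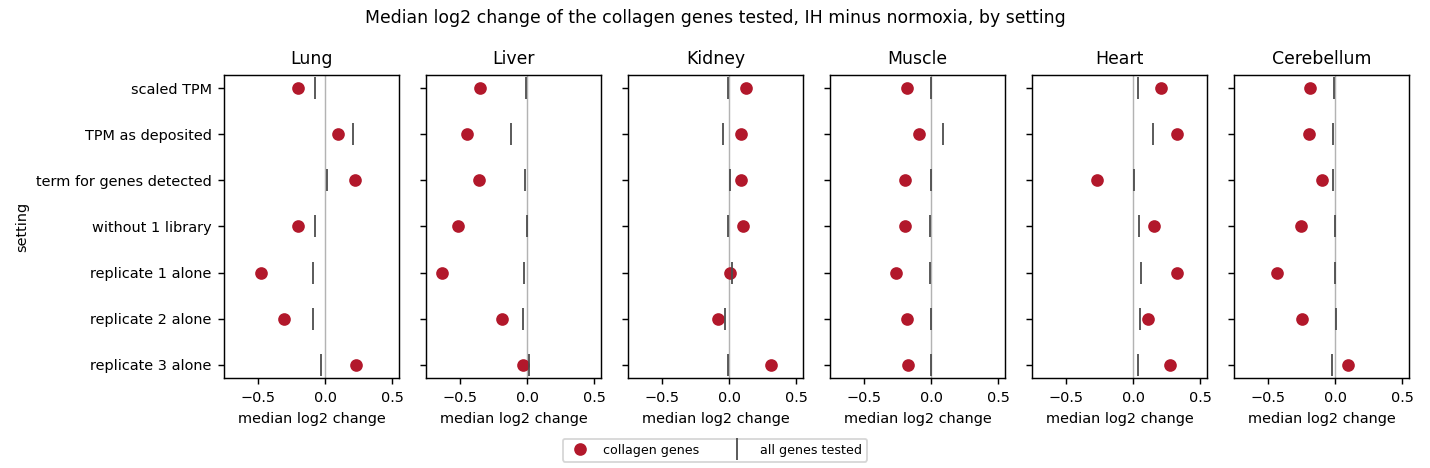
Median log2 change from normoxia to IH over the collagen genes tested (circles) and over all genes tested (bars) in each tissue under 7 settings. In the lung the median turns from -0.20 to 0.10 on TPM as deposited, and in the heart from 0.21 to -0.27 with a term for the number of genes detected, while the liver and the muscle stay negative under all 7.

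The lung was then compared with each other tissue by the interaction of tissue and treatment, with the libraries of both tissues scaled together. The same mice may have given both tissues, and all 5 comparisons share the lung. Against the heart, 17 of 21 collagens differed in response, where 67% of all genes did, and against the kidney 18 of 21, where 64.4% did. Against the muscle it was 8 of 25 (58.9% of all genes), against the cerebellum 6 of 25 (53.4%) and against the liver 4 of 15 (56.2%). Against heart and kidney 15 and 16 of these had the lower response in the lung.

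Past the threshold in opposite directions in lung and heart were 8 genes. With the term for genes detected, 0 of 22 heart collagens passed by limma (5 at an unadjusted p under 0.05), so none of the 8 stayed opposite. For Col1a2, Col4a2, Col5a2, Col6a2 and Col14a1, replicate 3 alone had the opposite sign in the lung. The lung minus heart difference was 2.96 ± 0.24 for Col26a1 (SE, adjusted p = 8.11e-19) and 1.46 ± 0.13 for Col27a1 (adjusted p = 1.48e-16), which were higher in the lung and lower in the heart. It was -1.05 ± 0.15 for Col14a1, -1.003 ± 0.23 for Col4a2, -0.90 ± 0.16 for Col1a2, -0.80 ± 0.17 for Col6a2, -0.65 ± 0.13 for Col5a2 and -0.57 ± 0.14 for Col8a1, which were lower in the lung and higher in the heart. Between lung and kidney Col6a3 (-0.92 ± 0.13), Col12a1 (-0.88 ± 0.09) and Col16a1 (-0.64 ± 0.13) did the same. With the term for genes detected the number of differing gene and tissue pairs went from 53 to 29, and the share of all genes went down too: 9 of 21 collagens differed from the heart (37.6% of all genes), 8 of 21 from the kidney (53.4%), 9 of 25 from the muscle (46.4%), 1 of 25 from the cerebellum (26.8%) and 2 of 15 from the liver (49.6%). Without the libraries with markers of other organs it was 17 of 21 for heart (69.4% of all genes), 17 of 21 for kidney (64.5%), 6 of 24 for muscle (57.4%), 13 of 23 for cerebellum (56.1%) and 4 of 15 for liver (59.8%), so that the cerebellum count rested on the libraries included.

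Ratios of chains within a library depend little on how the library is scaled. For 8 ratios of chains that share a molecule or a tissue, 39 could be tested, and 17 differed between treatments at an adjusted p of 0.05 (2-sided permutation test within time points, 100000 resamples, where 1e-05 is the smallest p they can give). Pairs of other genes were not tested, so no share of all ratios can be set beside these counts. In the lung 28.9% of all single genes were higher and 41.5% lower. In the lung, Col4a3/Col4a1 went from 0.181 to 0.259 (geometric means), a log2 difference of 0.52 with SDs of 0.27 and 0.17 (n = 24 each, permutation, adjusted p = 7.8e-05), at 8 of 8 time points and in each replicate number (0.29, 0.65 and 0.61). Col6a1/Col6a2 rose there from 1.25 to 1.49 (0.26, permutation, adjusted p = 7.8e-05) and Col1a1/Col1a2 from 0.585 to 0.659 (0.17, permutation, adjusted p = 7.8e-05), both at 8 of 8 time points. These 3 passed under every alternative run for ratios. Those were pseudocounts, a mean of 5 TPM, the block, and leaving out replicate numbers or libraries with markers of other organs. A term for genes detected was not run on ratios. Col4a3/Col4a4 (-0.37), Col4a1/Col4a2 (-0.08) and Col5a1/Col5a2 (0.12) also passed in the lung, and each lost its call in some fit without a replicate number. Col5a1/Col5a2 also lost it with permutation within replicate numbers as a block (permutation, adjusted p = 0.1) and with a pseudocount of 0.1 (permutation, adjusted p = 0.0539).

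In the heart 3 of 6 ratios differed. Col6a3/Col6a1 fell from 0.496 to 0.324 (-0.61, SDs 0.38 and 0.32, permutation, adjusted p = 7.8e-05), Col3a1/Col1a1 from 3.28 to 2.68 (-0.29, permutation, adjusted p = 0.00246) and Col5a1/Col5a2 from 1.49 to 1.26 (-0.24, permutation, adjusted p = 7.8e-05). Each was lower at 8 of 8 time points and in each replicate number, and Col3a1/Col1a1 lost its call without replicate 3 (permutation, adjusted p = 0.0502). In the kidney 5 of 8 ratios differed. Col6a3/Col6a1 went the other way there, from 0.884 to 1.204 (0.45, permutation, adjusted p = 0.00167), although replicate 3 alone gave -0.09, and the ratio lost its call without replicate 2. Col4a3/Col4a1 fell in the kidney from 0.923 to 0.783 (-0.24, permutation, adjusted p = 0.00259) and Col4a3/Col4a4 from 1.15 to 0.967 (-0.24, permutation, adjusted p = 0.00013), both in each replicate number, while Col4a3/Col4a1 had risen in the lung. Col5a1/Col5a2 (0.28, permutation, adjusted p = 0.00246), which fell in the heart, and Col6a1/Col6a2 (0.11, permutation, adjusted p = 0.0019) rose in the kidney in each replicate number, and lost their calls without replicate 2 and replicate 3. Muscle, liver and cerebellum had 1 ratio each past the threshold, none with the same sign in all replicate numbers. The liver ratio, Col6a3/Col6a1, was -0.34 (permutation, adjusted p = 0.0268) and -0.31 without the library that held heart transcripts (permutation, adjusted p = 0.047), and lost its call without replicate 1 or replicate 2. Without the libraries with markers of other organs 15 ratios differed, since Col5a1/Col5a2 in the lung and Col4a1/Col4a2 in muscle and cerebellum lost their calls and Col6a1/Col6a2 in the cerebellum gained one.

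Rhythm was tested per tissue and treatment with a 24-hour cosine in limma on genes that reach 1 TPM in a library of the tissue, over 24 libraries. In normoxia 18 gene and tissue pairs were rhythmic and after IH 14, of 15 different collagen genes. The kidney in normoxia had 11 of 25 (18.5% of all genes), the liver 3 of 23 (14.3%), the lung 2 of 37 (6.48%), the muscle 1 of 37 (5.27%), the heart 1 of 32 (0.552%) and the cerebellum 0 of 39 (0% of all genes), where 13 had an unadjusted p under 0.05. After IH the heart had 5 of 32 (3.4% of all genes), the muscle 4 of 37 (7.4%), the kidney 3 of 25 (5.21%), the lung 2 of 37 (3.37%), and the liver and cerebellum 0 (2.23% and 0.00944%), with 0 and 2 at an unadjusted p under 0.05. Without the library that held heart transcripts the liver had 3 of 20 in normoxia (15.1% of all genes) and 0 of 20 after IH (5.44%), with 3 at an unadjusted p under 0.05. With the replicate number as a block, the muscle had 6 of 37 in normoxia (9.86% of all genes) and 7 of 37 after IH (9.9%), and the heart had 10 of 32 after IH (4.34%). Without the libraries with markers of other organs, the muscle had 2 after IH and the heart 4. Of the 32 calls, 26 peaked between 22 and 5 h. The share of all rhythmic genes in that span was not counted, and calls of the same gene or tissue are not independent.

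Col5a3, a minor fibrillar chain that is high in muscle, was the collagen with rhythm in most tissues. In the heart after IH its mean fell from 5.97 ± 1.16 scaled TPM at 1:30 h (SD, n = 3) to 1.60 ± 0.11 at 13:30 h, with a fitted peak at 1.40 h, a peak to trough ratio of 3.01 and an adjusted p from limma of 3.76e-07. In normoxia it went from 5.16 ± 1.05 at 4:30 h to 1.44 ± 0.385 at 13:30 h, with a peak at 2.45 h and an adjusted p of 0.00948. In the muscle it peaked at 3.66 h in normoxia (2.47-fold, adjusted p = 0.00118) and at 2.57 h after IH (2.58-fold, adjusted p = 0.000233), going from 38.3 ± 2.06 at 1:30 h to 11.6 ± 2.64 at 13:30 h after IH.

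In the lung Col5a3 peaked at 23.0 h in normoxia and 23.9 h after IH (1.58- and 1.91-fold, adjusted p = 0.0149 and 0.00206), and in the kidney at 1.53 h in normoxia (1.55-fold, adjusted p = 0.00659), below 1 TPM. Its CCAAT and 3 CCGCCC matches are in the window printed above, which holds no CACGTG. In liver and cerebellum it did not pass in either treatment, with adjusted p from 0.441 to 0.977.

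In the normoxia kidney Col4a1 to Col4a5 of the type IV chains all passed. On TPM as deposited only Col4a3 of these did (limma adjusted p = 0.0489), and the others had 0.118 to 0.442. The kidney then had 2 of 25 rhythmic collagens, where 1110 of all 14666 genes were rhythmic. Only Col4a3 of these chains passed with the time point as a factor (limma adjusted p = 0.00295). Col4a3 went from 29.5 ± 3.57 at 1:30 h to 16.3 ± 2.01 scaled TPM at 16:30 h (SD, n = 3, 1.74-fold, limma adjusted p = 0.000193), and Col4a4, Col4a1 (1.71-fold), Col4a2 (1.59-fold) and Col4a5 (1.31-fold) also passed, with peaks between 2.07 and 4.23 h. Col8a1, Col5a1, Col15a1 and Col18a1 peaked near them, between 1.56 and 2.33 h, and Col13a1 stood apart with a peak at 18.5 h, which was also its peak after IH (18.3 h). After IH Col4a3 had a peak at 24.0 h and an adjusted p of 0.51. In the liver, Col27a1 peaked at 17.2 h in normoxia, from a mean of 3.85 at 4:30 h to its highest mean at 16:30 h, where the SD was 7.64 (3.35-fold, adjusted p = 0.00154), and Col15a1 and Col20a1 also passed.

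After IH in the heart, Col4a1, Col4a2, Col6a3 and Col15a1 passed beside Col5a3, each highest at 1:30 h and lowest at 13:30 h. Col4a1 went from 92.2 ± 7.21 to 46.7 ± 10.6 scaled TPM and Col15a1 from 36.5 ± 3.79 to 17.2 ± 2.30 (SD, n = 3, limma adjusted p = 0.0433 and 0.0115). In the muscle after IH Col28a1, Col20a1 and Col4a2 passed, in the lung Col5a1, and in the kidney Col8a1 and Col27a1 did so with peaks at 0.568 and 15.6 h. A rhythm past the threshold in a single treatment is not shown to differ between them. The test of the difference called 0% of all genes in each of the 6 tissues by limma, among them 0 collagens, with 3 gene and tissue pairs of collagens at an unadjusted p under 0.05. It does not show that rhythms were equal. Of the 32 calls, 4 held with each replicate number left out in turn (Col5a3 in the heart after IH and in the muscle in both treatments, and Col4a3 in the normoxia kidney), 4 with the time point as a factor and 13 on TPM as deposited. In normoxia 5, 9 and 11 pairs passed without replicates 1, 2 and 3, and after IH 2, 3 and 6.

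**Figure D5:**
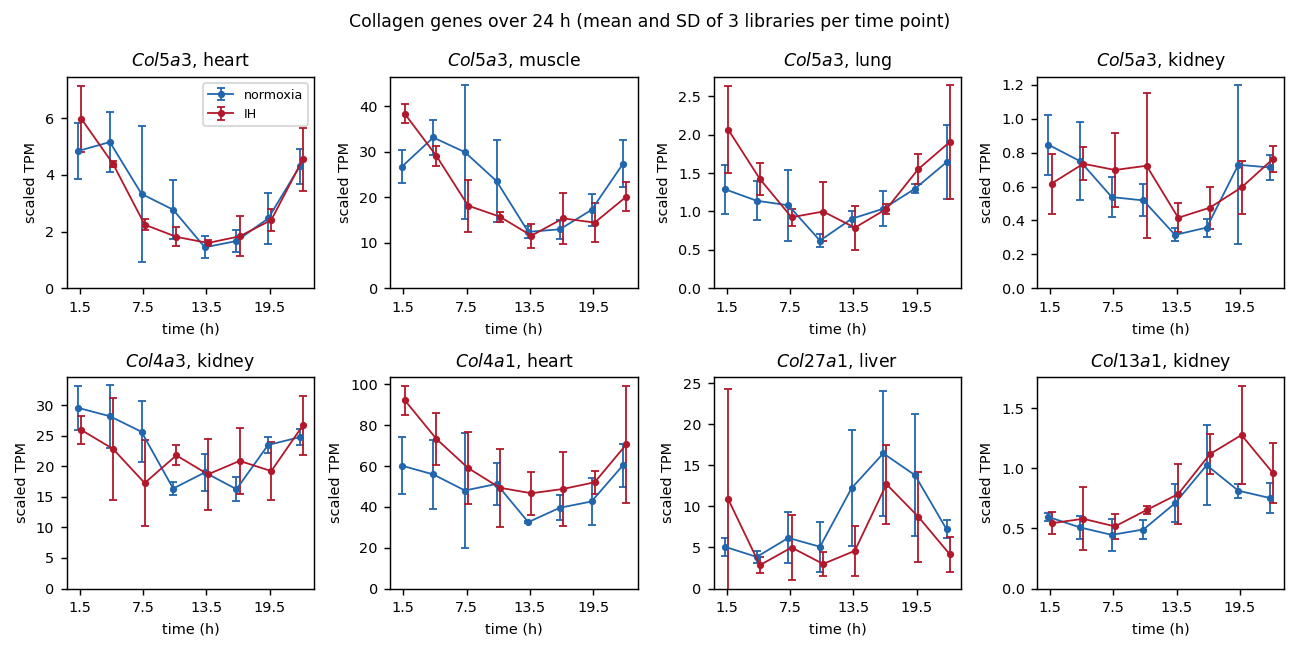
Scaled TPM of collagen genes over time in normoxia and after IH, as mean and SD of 3 libraries at each of 8 time points. Col5a3 is lowest at 13:30 h in the heart and the muscle in both treatments, Col4a3 in the kidney falls from 29.5 to 16.3 in normoxia, and Col27a1 in the liver is highest at 16:30 h in normoxia.

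Genes that make, process, bind and remove collagen were counted from lists. The shares of all genes to set beside these counts are 28.9% higher and 41.5% lower in lung, 28% and 17.3% in heart, 10.9% and 13.3% in liver, 8.25% and 11.5% in kidney, and 9.76% and 5.24% in cerebellum. Of 17 synthesis enzymes and chaperones tested in the lung, 12 were lower and 1 higher, with P4hb (-0.72 ± 0.10), the subunit of prolyl 4-hydroxylase, Serpinh1 (-0.64 ± 0.14), the collagen chaperone HSP47, and Crtap (-0.60 ± 0.09) changed. In the heart 11 of 17 were higher and 0 lower, in the liver 0 of 12 higher and 6 lower, in the kidney 1 of 17 higher, in the cerebellum 2 of 16 higher and 1 lower, and in the muscle 0 of 17 passed. With the term for genes detected, Serpinh1 and Crtap stood at 0.21 and 0.04 in the lung.

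Among 11 genes of procollagen processing and cross-linking tested in the lung, 3 were higher and 5 lower, with Bmp1, the procollagen C-proteinase, up by 0.76 ± 0.07 (limma adjusted p = 2.99e-12). In the heart 6 of 8 were higher. Of 19 matrix partners, 12 were lower and 1 higher in the lung, led by Lamc1 (-0.90 ± 0.12), Postn (-0.74 ± 0.07) and Hspg2 (-0.72 ± 0.11), 10 were higher and 1 lower in the heart, with Fmod (0.66 ± 0.09) and Prelp (0.63 ± 0.09) changed, and 8 were higher and 0 lower in the kidney. In the liver 4 of 15 were lower, among them Fn1, the fibronectin gene, which went from a median of 175 to 54.2 scaled TPM (-1.30 ± 0.20, limma adjusted p = 8.11e-06), and Hspg2 (-0.66 ± 0.21). Without the library that held heart transcripts, 7 of 12 synthesis genes and 8 of 14 matrix partners of the liver were lower, with Fn1 at -1.24 and Hspg2 at -0.84.

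Collagen receptors had 2 higher and 4 lower of 7 in the lung, where Itga10 rose by 0.86 ± 0.10 and Itgb1 fell by 0.64, and 3 of 5 higher in the heart. Matrix-degrading enzymes and their inhibitors had 0 higher and 3 lower of 10 in the lung and 3 of 9 higher in the heart, none changed by 1.5-fold in any tissue. Of 10 TGF-beta signalling genes 1 was higher and 5 lower in the lung and 7 were higher in the heart, with Tgfbr2 up by 0.60 ± 0.09. Cartilage markers, known from tissue rich in Col2a1, had 2 of 2 tested higher in the heart and 1 of 3 lower in the cerebellum, and adipocyte markers had 1 of 4 higher in the kidney and 0 past the threshold in lung, muscle and heart.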

How the data were processed

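The sources give RNA extraction with a Trizol method, directional poly(A) libraries, build mm10 and, per the labels, FastQC 0.11.3, bcl2fastq, kallisto and DESeq2. The authors quantified transcripts with Kallisto against Ensembl, and they deposited TPM for 35904 genes in each of 288 libraries, summing to between 989211 and 999188. Their DESeq2 fits on estimated counts are not analysed here. Since there are no counts, the sequencing depth and its precision are not known here. 0 libraries held the values of another.

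Samples were grouped by the tissue and treatment in the labels. Each library's TPM was divided by a factor, the median ratio of its genes to their geometric means, and log2 was taken after adding 0.5. limma 3.58.1 in R 4.3.3, with treatment alone and an intensity trend, was fitted to every gene averaging 1 TPM or more (rhythm: reaching 1 TPM in a library, cosine and sine of 24 hours), and p-values were adjusted by Benjamini-Hochberg over all genes of the fit. The study's MetaCycle was not available, so a single cosine fit took its place. Chain ratios used TPM as deposited with 100000 permutations, adjusted over 39 tests. Python 3.11.15, numpy 2.4.6, pandas 2.3.3, scipy 1.17.1 and matplotlib 3.10.9 served for the rest. The fits were tested on simulated data. The study describes 3 mice per time point and treatment, and the labels do not name the mouse behind a library.

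Named genes are the collagens changed in a tissue (at most 8 per tissue by size of change), the 5 highest per tissue, up to 5 rhythmic ones per tissue and treatment by smallest p, and the 3 changed members with the largest change per list. The genes of interest, the classes and the 18 lists were chosen with earlier results of these data known. Groups of 24 libraries are given by their lowest, median and highest. Alternatives were TPM as deposited, pseudocounts of 0.1 and 1, no filter or a mean of 5 TPM, terms for time point, replicate number or genes detected, the time point as a factor, and leaving out single libraries or replicate numbers. The test of rhythm differences, the values within 1 replicate number and the fits without libraries that held markers of other organs were chosen after seeing the data. Same-numbered libraries of both treatments deviated together in the muscle, where the correlations across genes were 0.155, 0.375 and 0.650, and not in every number of the other tissues. In the liver the correlations were 0.669, -0.065 and 0.487. The labels do not say what a number stands for, and such correlations do not show that samples were paired. Sequences and gene positions come from RefSeq (GRCm38.p6) and GENCODE M21.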

Additional observations from a re-analysis of the deposited data

Results flagged for a closer look

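These collagen responses were set apart because the interaction of tissue and treatment passed the threshold, with all 5 comparisons sharing the lung libraries. Against the lung, the number of collagens that differed was 4 of 15 for liver (56.2% of all genes), 18 of 21 for kidney (64.4%) and 8 of 25 for muscle (58.9%). It was 17 of 21 for heart (67%) and 6 of 25 for cerebellum (53.4%). The shares for liver, muscle and cerebellum thus lay below those of all genes. Between lung and heart the difference in log2 change, lung minus heart, was 2.96 for Col26a1, 1.46 for Col27a1, -1.05 for Col14a1, -1.003 for Col4a2, -0.90 for Col1a2, -0.80 for Col6a2, -0.65 for Col5a2 and -0.57 for Col8a1, and each passed in opposite directions in the 2 tissues. Between lung and kidney it was -0.92 for Col6a3, -0.88 for Col12a1 and -0.64 for Col16a1. Of the genes opposite between lung and heart, replicate 3 alone had the opposite sign in the lung for Col1a2, Col4a2, Col5a2, Col6a2 and Col14a1. In the lung the number of genes detected was higher after IH and in the heart it was lower. With the term for genes detected, 0 of 22 heart collagens passed by limma (5 at an unadjusted p under 0.05), so no gene stayed opposite. The term for genes detected left 29 of 53 pairs, while of all genes the share went from 67% to 37.6% between lung and heart and from 64.4% to 53.4% between lung and kidney. Since the number of genes detected moved with treatment, that term can take up part of the response itself. The part of detection in the differences was not tested.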

How the results depend on the processing

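Of 118 alternative values of the counts, 79 lay within 1.5 times the count as reported and 39 did not, and of 144 values of single changed genes 116 kept their direction and side of the threshold, 26 lost the threshold and 2 turned sign, Col4a1 (0.50) and Col4a2 (0.69) in the lung, both with the term for genes detected. That term gave 2 changed collagens in the lung, 2 higher and 0 lower (9 as reported), 2 in the liver (1), 0 in the heart (2) and 29 differing gene and tissue pairs (53). These are counts and not genes kept: of the changed genes of all tissues, 1 kept its direction and threshold under that term, 9 lost the threshold and 2 turned sign. TPM as deposited gave 3 changed in the liver, 4 in the heart, and 6 rhythmic pairs in normoxia (18) and 9 after IH (14). A pseudocount of 0.1 gave 3 in the liver, 1 in the kidney (0) and 2 in the cerebellum (0), and a pseudocount of 1 gave 1 in the heart. A mean of 5 TPM gave 5 in the lung, 1 in the heart and 24 differing pairs, since fewer genes were tested. Without the library least like the others, which in the liver is the one holding heart transcripts, liver and cerebellum had 3 changed genes each. Without the libraries above the limits set for some markers of another organ, 1 was changed in the cerebellum, and the other counts of changed genes and the totals of rhythmic pairs, differing pairs and ratios stayed within 1.5 times. Libraries with markers that had no limit were kept. The time point as a factor left 2 rhythmic pairs in either treatment. With the replicate number as a block, the changed count stayed at 9, 1, 0, 0, 2 and 0 in lung, liver, kidney, muscle, heart and cerebellum, while rhythmic pairs came to 26 in normoxia and 25 after IH, differing pairs to 54 and ratios to 16. Every replicate number is present at each time in both treatments, so the block leaves the log2 changes as they are. It cannot take up a replicate number that lies apart after IH alone, so the unchanged count is no check on that split in lung and liver. The block took the call from the Col5a1/Col5a2 ratio of the lung and raised the lower genes of the muscle from 2 to 8, those of the liver from 3 to 4 and the higher genes of the heart from 10 to 11. Leaving out 1 replicate number gave between 5 and 14 changed collagens in the lung, 0 and 4 in the liver, 0 and 1 in the kidney, 0 in the muscle, 0 and 2 in the heart, 0 and 10 in the cerebellum, 5 and 11 rhythmic pairs in normoxia, 2 and 6 after IH, 32 and 61 differing pairs and 10 and 17 ratios. The cause of these shifts was not tested. With TPM alone the counts behind low genes are unknown, which limits the values of those near 1 TPM.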
